A study of Mus musculus with 13 samples.

Results

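The red cell miRNAs mmu-miR-451, mmu-miR-144-3p, mmu-miR-144-5p and miR-486 were followed across 13 primary abdominal neuroblastomas of TH-MYCN mice, whose transgene places the MYCN oncogene under the tyrosine hydroxylase promoter of sympathetic neural crest cells. Members were the mouse probes that the array names miR-451 or either arm of miR-144, together with any mature form named miR-486, of which the array carries 1, miR-486-3p. These were 4 of the 1079 mouse miRNAs on the array, and 3 of the 4 were detected often enough to be tested. The labels place 6 tumours in a group with wild-type caspase-8 and no spread to bone marrow, called wild type here, and 7 in a caspase-8-deficient group whose tumours had reached the marrow, called deficient here. Every animal carried the TH-MYCN transgene, each sample was 1 tumour, and the labels call the samples biological replicates. Genotype and metastasis changed together and cannot be told apart. Neither the labels nor the series text used here give the way in which caspase-8 was lost or the animals' age.

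miR-144 and miR-451 are cut from a single primary transcript that the erythroid factor GATA1 switches on, and they accumulate as red cell precursors mature. miR-451 is unusual in that Ago2, not Dicer, cuts its precursor, and it shields red cells from oxidative stress. miR-144 acts on the antioxidant regulator Nrf2. miR-486 lies in the gene of ankyrin 1, a red cell and muscle membrane protein, and is found in both cell types. In a solid tumour these miRNAs are commonly read as a sign of blood in the sample. In bulk RNA, fewer red cells and less of these miRNAs per red cell cannot be told apart.

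The mature sequences show that the 3 tested members share no seed. They are given 5′ to 3′ from RefSeq on GRCm38.p6, with the seed (bases 2 to 8) in capitals. All lie on the plus strand, miR-451a (miR-451 on the array) at chr11:78073186-78073207, miR-144-3p at chr11:78073047-78073066 and miR-144-5p at chr11:78073010-78073032.
mmu-miR-451a: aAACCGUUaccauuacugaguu
mmu-miR-144-3p: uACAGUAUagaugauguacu
mmu-miR-144-5p: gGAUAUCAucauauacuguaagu
No other mouse miRNA of the RefSeq table had the 7 seed bases of any of them. The seed of miR-144-3p without its last base (bases 2 to 7) occurred in 1 other, miR-101a-3p.

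The hairpins show that both arms of miR-144 come from 1 precursor and that miR-451 has its own. The mature arms are in capitals. Mir144 spans chr11:78073005-78073070 and Mir451a spans chr11:78073170-78073241, with 99 bases between them.
Mir144: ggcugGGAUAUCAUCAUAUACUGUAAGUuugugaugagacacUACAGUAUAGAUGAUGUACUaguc
Mir451a: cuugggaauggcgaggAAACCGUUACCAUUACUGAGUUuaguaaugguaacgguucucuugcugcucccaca

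The array's miR-3107-5p and miR-3107-3p were followed beside the members. The RefSeq gene table (GRCm38.p6) lists mir-486b as a synonym of Mir3107 and places Mir3107 inside Mir486, which lies inside Ank1 on chromosome 8. They do not carry the name miR-486 on the array, so they are set beside the members and not counted among them.

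Each tumour was hybridised to 1 Agilent array of 1 colour, and the arrays lay on 2 slides. Slide 1 held wild type 1 and 2 with deficient 2, 3, 5, 6 and 7. Slide 2 held wild type 3 to 6 with deficient 1 and 4, so that slide and group are partly confounded. Between 338 and 469 mouse miRNAs were detected on an array. The summed signal of all mouse miRNAs, detected or not, ran from 432193 to 945092 units of brightness. Signals were scaled to each array's 75th percentile, raised to a floor of 4.10 on the log2 scale and read as log2. Levels are comparable between tumours for 1 miRNA but not between miRNAs, whose probes differ in brightness. Tests covered 419 miRNAs, those detected in 6 or more of the tumours.

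The members varied mainly between individual tumours, and 2 tumours stood at the top for each tested member: deficient 1, followed by wild type 6. The lowest was always wild type 3. The 3 lie on slide 2. The results below are therefore also given without wild type 6, without deficient 1, or without both. Wild type 6 and deficient 1 also had the highest summed signal, 945092 and 925889 units. Wild type 3 had 563641, and only wild type 2 had less (432193). Deficient 4, with 904751, ranked 9th in miR-451. The part that array brightness had in this order was not tested.

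miR-451 was detected in 13 of 13 tumours. In the wild-type tumours its log2 level ran from 12.25 through a median of 13.82 to 16.05. In the deficient tumours it ran from 14.24 through a median of 14.78 to 16.32. Wild type 6 lay 1.13 log2 units, or 2.18-fold, above the next tumour, deficient 7, and deficient 1 lay a further 0.27 above wild type 6. From the lowest to the highest tumour the range was 16.9-fold, and the SD over 13 tumours ranked 59th among the 419 tested miRNAs.

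miR-144-3p, the arm from the 3′ side of the Mir144 hairpin, was also detected in 13 of 13 tumours. Wild-type levels ran from 7.01 through 8.87 to 10.17, and deficient levels from 8.45 through 9.55 to 10.62, on the log2 scale. The order of the tumours resembled that of miR-451 apart from deficient 7, which ranked 3rd in miR-451 and 12th in miR-144-3p. The range over 13 tumours was 12.2-fold.

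miR-144-5p, the opposite arm, was dimmer and was detected in 11 of 13 tumours, not in wild type 2 and 3. Wild-type levels ran from the floor of 4.10 through 4.96 to 7.79, and deficient levels from 5.85 through 6.28 to 8.20. Apart from deficient 1, the deficient tumours lay close together, between 5.85 and 6.35, and wild type 6 was the only wild-type tumour among or above them. The range over 13 tumours, taken from the floor, was 17.1-fold.

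miR-486-3p was at the floor in every tumour. Its scaled signal ran from -8.36 to 12.1 in the wild-type tumours and from -5.02 to 14.5 in the deficient ones, against a floor of 17.2. The scanner software marked it as detected only in deficient 1, which had the highest signal. No level or fold is given for it.

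miR-3107-5p was detected in 13 of 13 tumours and miR-3107-3p in 0 of 13. For miR-3107-5p, wild-type log2 levels ran from 6.09 through 7.58 to 9.95, and deficient levels from 7.94 through 8.66 to 10.03. Deficient 1, wild type 6 and wild type 3 kept their places at the top and bottom. The range was 15.4-fold.

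**Figure D1:**
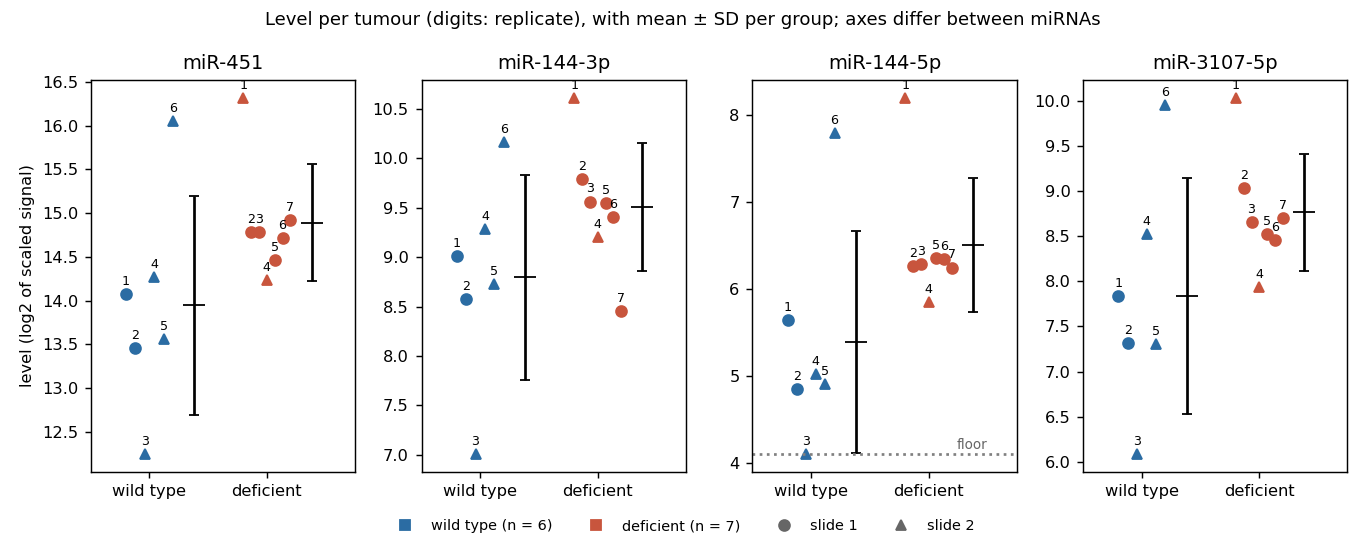
Log2 of the scaled signal (vertical axis, with its own range for each miRNA) of miR-451, miR-144-3p, miR-144-5p and miR-3107-5p in 6 wild-type and 7 deficient tumours. Each point is a tumour with its replicate number, circles are slide 1 and triangles slide 2, bars are mean ± SD, and the dotted line is the floor. Deficient 1 and wild type 6 are highest and wild type 3 lowest in all 4 panels, and deficient 7 is low in miR-144-3p only.

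Each miRNA was read by 2 probes, and for miR-451 and miR-144-3p the probes followed each other closely across tumours. Pearson's r between the 2 probes was 0.9997 for miR-451 and 0.9996 for miR-144-3p, and 0.9994 for miR-3107-5p. The median coefficient of variation between spots of a probe was 2.77% and 3.19% for miR-451, and 4.68% and 4.51% for miR-144-3p. For miR-144-5p the probes disagreed: 1 of them was at the floor in 11 tumours, and r was 0.77. Its values thus rest mostly on 1 probe. Deficient 7 ranked 12th of 13 on both probes of miR-144-3p and 3rd of 13 on both probes of miR-451.

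The first comparison asked whether the red cell miRNAs differed between caspase-8-deficient tumours with marrow metastasis and wild-type tumours without. Mean levels were higher in the deficient tumours for all 3 tested members, but none of the differences passed the test against the spread between tumours. Of the 3 tested members, 0 were called by limma's moderated test at an adjusted p under 0.05, where 0% of the 419 tested miRNAs were called. At an unadjusted p under 0.05, 0 members passed, against 16 of 419 (3.82%).

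miR-451 was 13.94 ± 1.25 (SD, n = 6) in wild-type and 14.89 ± 0.67 (n = 7) in deficient tumours. The difference was 0.95 ± 0.50 (SE), a 1.93-fold higher mean, with a 95% interval from -0.12 to 2.02 and a limma adjusted p of 0.589. Of the 7 deficient tumours, 7 lay above the wild-type median, 1 lay above every wild-type tumour, and 4 of the 6 wild-type tumours lay below every deficient one. The groups therefore overlapped through wild type 4 and 6.

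miR-144-3p was 8.80 ± 1.04 in wild-type and 9.51 ± 0.65 in deficient tumours, a difference of 0.72 ± 0.44 (SE; 95% interval -0.22 to 1.65, limma adjusted p = 0.589). miR-144-5p was 5.38 ± 1.28 against 6.50 ± 0.77, a difference of 1.12 ± 0.52 (SE; -0.0030 to 2.24, limma adjusted p = 0.589). Of the 6 wild-type tumours, 1 lay below every deficient one for miR-144-3p and 5 did for miR-144-5p. miR-3107-5p was 7.84 ± 1.31 against 8.76 ± 0.65, a difference of 0.92 ± 0.51 (SE; -0.17 to 2.02, limma adjusted p = 0.589). Over all 419 tested miRNAs, 54.2% had a higher mean in the deficient tumours and the median difference was 0.04. The interval for miR-451 runs from 0.918-fold to 4.05-fold, and 13 arrays do not narrow it further.

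The size of the difference depended on single tumours. Without wild type 6 it was 1.37 for miR-451, 0.99 for miR-144-3p and 1.60 for miR-144-5p. Without deficient 1 it was 0.71, 0.53 and 0.84, and without wild type 3 it was 0.61, 0.36 and 0.86. Without both wild type 6 and deficient 1, a choice made from the values themselves, it was 1.13, 0.81 and 1.32. The limma adjusted p for the 3 members ranged from 0.0824 to 0.902 in that last fit and from 0.325 to 0.861 in the fits without 1 of these tumours.

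Within slide 1 (2 wild-type and 5 deficient tumours) the difference was 0.97 ± 0.22 (SE) for miR-451 (limma adjusted p = 0.248). It was 0.56 ± 0.38 for miR-144-3p (limma adjusted p = 0.769) and 1.05 ± 0.22 for miR-144-5p (limma adjusted p = 0.248). Within slide 2 (4 and 2) it was 1.25 ± 0.99, 1.11 ± 0.83 and 1.57 ± 1.03 (limma adjusted p = 0.976 for each). With slide as a block it was 1.10, 0.83 and 1.30, with limma adjusted p = 0.844 for each. The value for miR-144-5p also changed with the probe summary, the background and the floor: it was 1.12 as given, 0.56 with the log2 values of the probes averaged, 0.47 with the scanner software's total gene signal, 0.27 after normexp background correction and 0.16 with a floor 4 times as high. The sign stayed positive for the 3 members under every scaling, background and floor that was run.

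**Figure D2:**
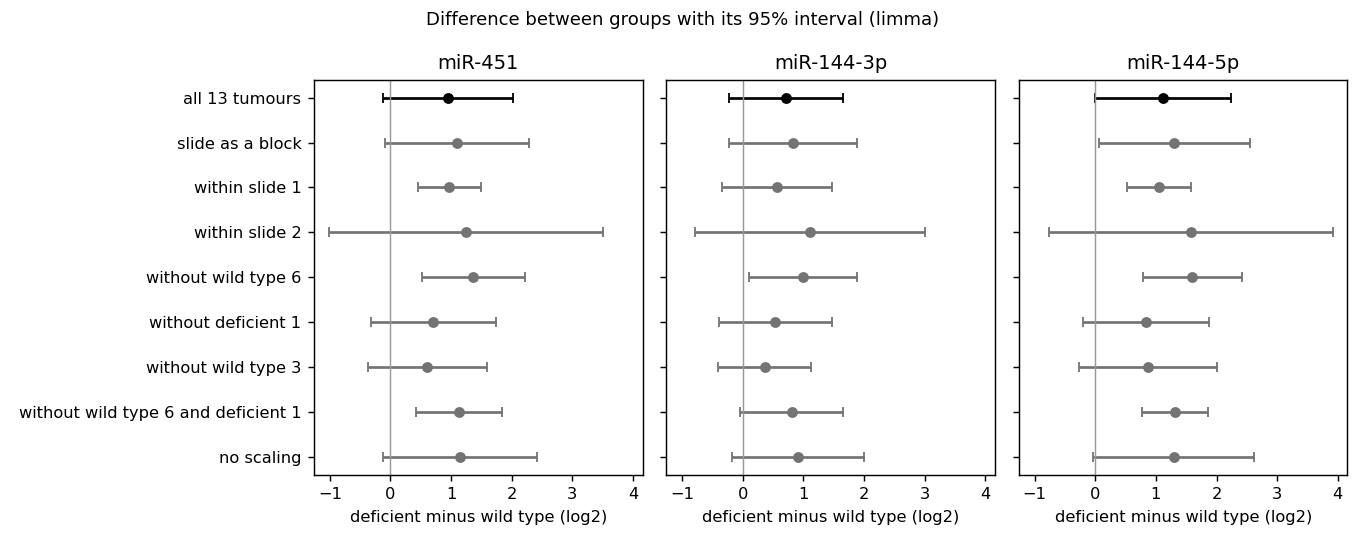
Difference between deficient and wild-type tumours (horizontal axis, log2) of miR-451, miR-144-3p and miR-144-5p, with its 95% interval from limma as bars. The top line uses all 13 tumours, the others name the tumours left out, the slide or the scaling. Every point lies above 0, and for miR-451 the value moves from 0.61 without wild type 3 to 1.37 without wild type 6.

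The share of the array's signal that went to miR-451 also put deficient 1 and wild type 6 highest and wild type 3 lowest, while several tumours between them changed places. In the wild-type tumours miR-451 took from 0.781% through 1.63% (wild type 2) and 2.07% (wild type 4) to 10.2% of the summed signal of mouse miRNAs, and in the deficient tumours from 2.50% to 11.4%. Only wild type 6 and deficient 1 exceeded 4.77%. The share is one of brightness and not of molecules.

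Means were 3.16 ± 3.53% (SD, n = 6) in wild-type and 4.51 ± 3.12% (n = 7) in deficient tumours, a difference of 1.34 percentage points (two-sided exact permutation p = 0.466, 1716 splits). Leaving out 1 tumour decided this value: the difference was 2.76 points without wild type 6 (exact permutation p = 0.0240) and 0.195 without deficient 1 (exact permutation p = 0.965). Within slide 1 it was 1.26 points and within slide 2 it was 3.52 points.

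**Figure D3:**
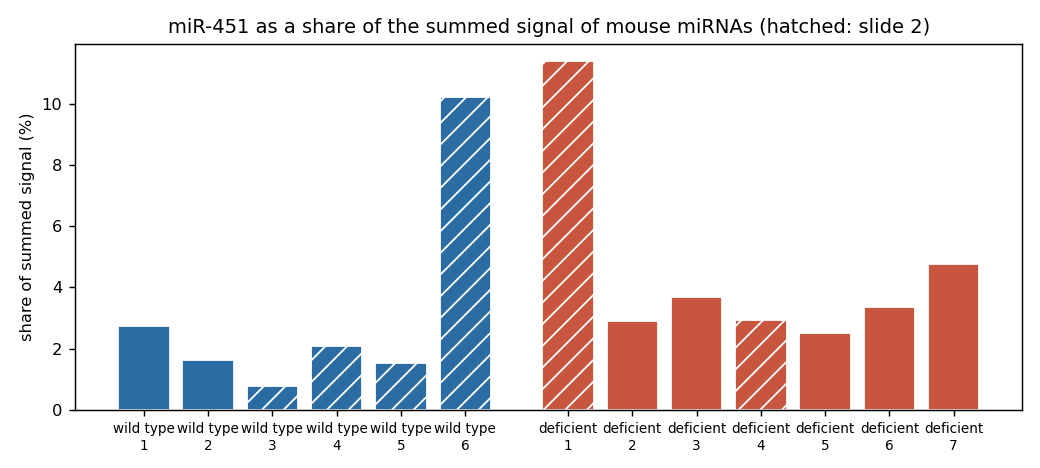
Share of the summed signal of mouse miRNAs taken by miR-451 (vertical axis, percent, from 0), 1 bar per tumour, wild type on the left and deficient on the right, hatched for slide 2. Wild type 6 (10.2%) and deficient 1 (11.4%) stand above the other tumours, which lie between 0.781% and 4.77%.

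The second comparison asked how far the members moved together across tumours. All 3 pairs of tested members rose and fell together over the 13 tumours. The family held 3 pairs, with Benjamini-Hochberg adjustment over them, and each p came from 100000 two-sided permutations.

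For miR-451 and miR-144-5p, Pearson's r was 0.964 (permutation p = 1e-05, the smallest that these permutations can give, adjusted 3e-05) and Spearman's rho 0.879 (permutation p = 0.00015, adjusted 0.00045). Without wild type 3 and deficient 1, the 2 tumours farthest from the median of miR-451, r was 0.945. Within slide 1 it was 0.947 (exact permutation p = 0.0236, adjusted 0.0708, which misses the threshold) and within slide 2 it was 0.967. Without wild type 6 and deficient 1 it was 0.925 (permutation p = 0.00012, adjusted 0.00036).

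For miR-451 and miR-144-3p, r was 0.893 (permutation p = 0.00011, adjusted 0.00014) and rho 0.742 (permutation p = 0.00505, adjusted 0.00505). It was 0.706 without wild type 3 and deficient 1, and 0.831 without wild type 6 and deficient 1. Within slide 1 it fell short of the threshold, at 0.435 (exact permutation p = 0.344, adjusted 0.344, 7 tumours), and within slide 2 it was 0.973. Slide 1 holds deficient 7, and without that tumour r over the other 12 was 0.964.

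The 2 arms of miR-144, which come from 1 hairpin, had r = 0.854 (permutation p = 0.00014, adjusted 0.00014) and rho = 0.852 (permutation p = 0.00045, adjusted 0.000675). Without the 2 farthest tumours r was 0.722. It was 0.599 within slide 1, where it missed the threshold (exact permutation p = 0.121, adjusted 0.181), and 0.899 within slide 2. Without deficient 7 it was 0.90.

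miR-3107-5p, from another chromosome, followed miR-451 with r = 0.984 (permutation p = 1e-05, adjusted 1.5e-05 over its 3 pairs) and rho = 0.956 (permutation p = 1e-05, adjusted 3e-05). Within slides r was 0.949 and 0.991, and without wild type 6 and deficient 1 it was 0.973. With miR-144-3p r was 0.907 and with miR-144-5p 0.929.

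**Figure D4:**
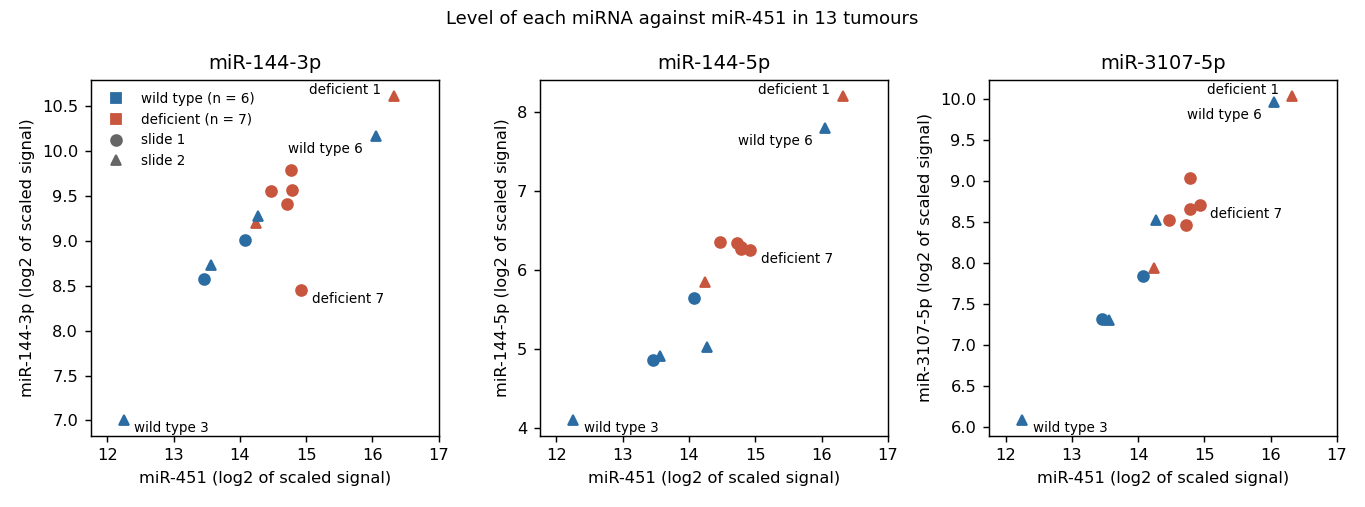
Log2 level of miR-144-3p, miR-144-5p and miR-3107-5p (vertical axes) against miR-451 (horizontal axis) in 13 tumours, 1 point each, coloured by group with the slide as shape. The points lie along a line from wild type 3 to deficient 1, with deficient 7 below the line for miR-144-3p (8.45 at a miR-451 level of 14.93).

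Because the members moved together, their levels relative to miR-451 varied less than their levels alone. Over 13 tumours the SD of the level was 0.89 for miR-144-3p, 1.15 for miR-144-5p and 1.08 for miR-3107-5p. After miR-451 was subtracted on the log2 scale it was 0.48, 0.31 and 0.19. Relative to miR-451, the deficient group differed from the wild type by -0.23 for miR-144-3p (two-sided exact permutation p = 0.429), by 0.17 for miR-144-5p (exact permutation p = 0.358) and by -0.02 for miR-3107-5p (exact permutation p = 0.850), with 0.644, 0.644 and 0.850 after adjustment over the 3.

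The next question was which of the other tested miRNAs followed miR-451 once the group was taken into account. A limma fit with group and miR-451 as terms called a slope on miR-451 in 3 of 418 miRNAs (0.718%), and these were miR-3107-5p and both arms of miR-144. The slope was 1.01 log2 units per log2 unit of miR-451 for miR-3107-5p (SE 0.09, limma adjusted p = 1.57e-05) and 1.01 for miR-144-5p (SE 0.11, limma adjusted p = 0.000118). It was 0.75 for miR-144-3p (SE 0.14, limma adjusted p = 0.0152). No other slope passed, and that of miR-16-5p was 0.31 (limma adjusted p = 0.640).

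Calls of single miRNAs in that fit were not all kept when tumours were left out. Without wild type 6 and deficient 1 only miR-3107-5p passed (slope 1.11, limma adjusted p = 0.0188), and both arms of miR-144 had limma adjusted p = 0.166, with slopes of 0.94 for miR-144-3p and 0.59 for miR-144-5p. Without wild type 3 and deficient 1, 2 slopes passed, and miR-144-3p (slope 0.53, limma adjusted p = 0.544) was not among them. With slide added as a block 3 slopes passed.

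At an equal level of miR-451 no miRNA was called between the groups: 0 of 418 at a limma adjusted p under 0.05, and 8 at an unadjusted p under 0.05. The group difference left at equal miR-451 was -0.03 for miR-3107-5p, 0.17 for miR-144-5p and 0.0013 for miR-144-3p.

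Among the 415 tested miRNAs other than these, the Pearson correlation with miR-451 over 13 tumours had a median of -0.083 and a maximum of 0.758, so that all lay below both arms of miR-144 and miR-3107-5p. This is a description over 13 arrays that share scaling and slides. For miR-144-3p the order depended on the measure. Spearman's rho with miR-451 was 0.802 for miR-145-5p and 0.786 for miR-152-3p, against 0.742 for miR-144-3p. Within slide 1 Pearson's r was 0.905, 0.773 and 0.435 in the same order, and within slide 2 it was 0.815, 0.953 and 0.973. By Pearson's r over 13 tumours, the nearest were miR-145-5p (0.758), a smooth muscle miRNA, and miR-16-5p (0.754), an abundant miRNA of blood cells and many tissues. They were followed by miR-152-3p (0.748), miR-15a-5p (0.722), which shares a cluster with a copy of miR-16, miR-365-3p (0.691) and miR-143-3p (0.690), the cluster partner of miR-145. miR-192-5p, miR-199a-3p and miR-25-3p had 0.618, 0.610 and 0.598. At the other end stood miR-433-3p (-0.792), miR-149-5p (-0.777) and miR-136-5p (-0.713). miR-433 and miR-136 belong to the imprinted Dlk1-Dio3 cluster.

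**Figure D5:**
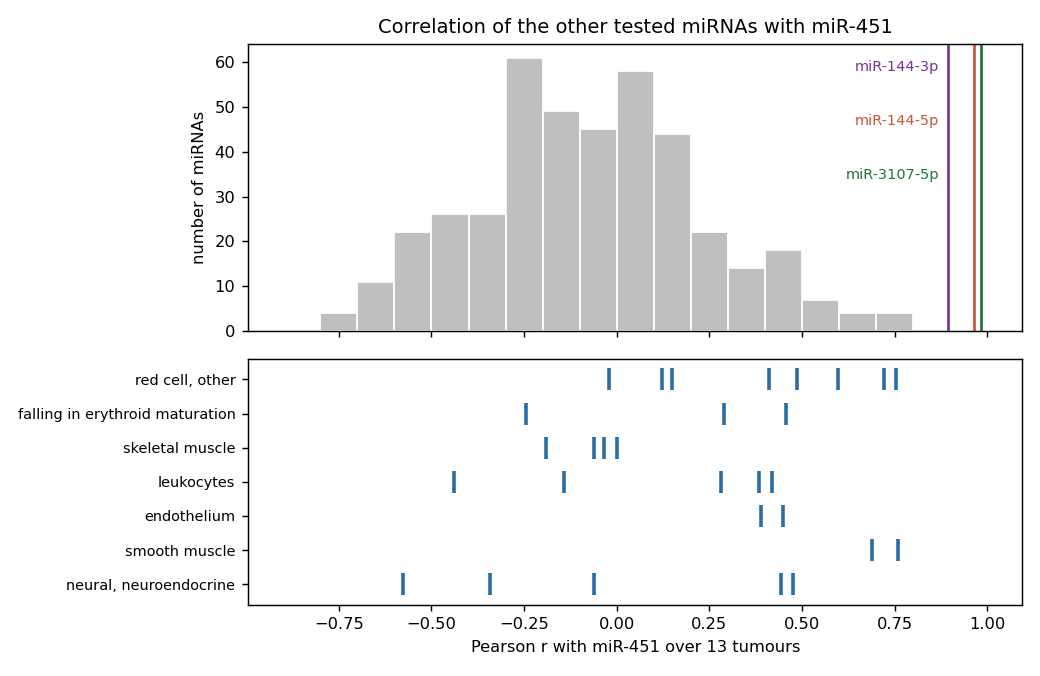
Above, the number of tested miRNAs (vertical axis) by their Pearson correlation with miR-451 over 13 tumours (horizontal axis) in bars 0.1 wide, with lines at miR-144-3p, miR-144-5p and miR-3107-5p. Below, each tick is a tested miRNA of the named list. The other 415 miRNAs end at 0.758, below the lines at 0.893, 0.964 and 0.984.

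Lists of miRNAs known from red cells and from other cells of a tumour were set beside the members. The mean of the other miRNAs abundant in red cells did not pass the threshold beside miR-451 in the scaled values. It did in the unscaled ones, where all values share the array's brightness. Of the 12 on the array 8 were tested, and miR-182-5p, miR-183-5p, miR-96-5p and miR-363-3p were detected in 0 of 13 tumours. The correlation of the 8 tested with miR-451 had a median of 0.449, against -0.083 over the others. miR-16-5p had 0.754 and miR-15b-5p 0.487. Of the related miR-17 family clusters, miR-25-3p had 0.598, miR-93-5p 0.411, miR-20a-5p 0.123 and miR-92a-3p -0.020. The summed log2 level of the list was 13.5 to 14.4 in the wild-type and 14.1 to 14.7 in the deficient tumours.

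Of the 8, 0 were called between groups (0% over all tested). A higher mean in the deficient tumours was found for 8 (7 with the total gene signal), against 54.2% of all tested miRNAs. The 8 are not independent, since miR-15a-5p shares a cluster with a copy of miR-16. Their median difference was 0.23, against 0.04 over all tested miRNAs. The mean of the list correlated with miR-451 at r = 0.561 (permutation p = 0.0468, adjusted 0.225 over 24 pairs of list and member) and rho = 0.258 (adjusted 0.694). Within slide 1 r was -0.175 and within slide 2 it was 0.637. Without scaling between arrays r was 0.812 with miR-451 (permutation p = 0.00062, adjusted 0.00372), 0.742 with miR-144-3p (permutation p = 0.00334, adjusted 0.0134) and 0.856 with miR-144-5p (permutation p = 0.00015, adjusted 0.00232). Unscaled r with miR-451 was also higher for the neural and neuroendocrine list (0.601, against 0.089 scaled). The same held for miR-23a-3p, which is low in red cells (0.473, against 0.099 scaled).

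miRNAs known to fall as red cells mature, with 3 of 4 tested, had correlations from -0.244 (miR-24-3p) to 0.458 (miR-221-3p) with miR-451, and miR-155-5p had 0.289. miR-222-3p was detected in 3 tumours. The skeletal muscle list bears on miR-486, which muscle also makes. Its 4 tested miRNAs of 6 were miR-133b-3p, miR-1a-3p, miR-133a-3p and miR-206-3p, with correlations between -0.190 and 0.00044, and miR-499-5p and miR-208b-3p were detected in 0 tumours. The mean of the muscle list had r = -0.101 with miR-3107-5p (permutation p = 0.740). Within the wild-type tumours this r was 0.369 and within the deficient tumours -0.603, and the difference between groups was not tested. Summed muscle levels ran from 7.35 to 11.8 in wild-type and from 6.47 to 13.1 in deficient tumours on the log2 scale.

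The smooth muscle list, miR-143-3p and miR-145-5p, was the only one of 8 lists whose mean passed the threshold with a member, in 2 of the 24 pairs (9 pairs passed without scaling between arrays, where all values share the array's brightness). With miR-451 r was 0.756 (permutation p = 0.00295, adjusted 0.0354) and rho 0.742 (permutation p = 0.00529, adjusted 0.086, which misses it). With miR-144-5p r was 0.772 (permutation p = 0.00244, adjusted 0.0354) and rho 0.720 (adjusted 0.086). Within slides r with miR-451 was 0.799 and 0.834. Without wild type 2 and wild type 6, the 2 tumours farthest from the median of this list's mean, it was 0.670. Each fell short of the threshold after adjustment over 24 pairs. Within the wild-type tumours r was 0.844 with miR-451 and 0.903 with miR-144-5p, and within the deficient tumours it was 0.187 and 0.131; the difference between groups was not tested. Summed smooth muscle levels were 7.53 to 9.29 in wild-type and 7.94 to 9.13 in deficient tumours, both miRNAs had a higher mean in the deficient group, and 0 of 2 were called.

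Endothelial miR-126-3p and miR-126-5p had correlations of 0.449 and 0.390 with miR-451, and summed levels of 10.6 to 11.5 in wild-type and 10.1 to 12.1 in deficient tumours. Of the leukocyte list, 5 of 6 were tested, and r ran from -0.438 for miR-342-3p to 0.419 for the myeloid miR-223-3p. miR-142-3p, a miRNA of blood-forming cells, had 0.383, and miR-142-5p and miR-146a-5p had 0.282 and -0.142. miR-150-5p was detected in 5 tumours. The summed leukocyte level was 11.2 to 13.0 in wild-type and 11.1 to 12.4 in deficient tumours.

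Neural and neuroendocrine miRNAs, which mark the tumour cells, were all detected in 13 of 13 tumours. Of these 5, miR-124-3p had r = -0.576, miR-7a-5p -0.343, miR-375-3p -0.062, miR-9-5p 0.443 and miR-9-3p 0.475. The liver miRNA miR-122-5p was detected in 1 tumour. miR-23a-3p, a miRNA low in red cells that is used as a reference for haemolysis, had r = 0.099. Its own difference between groups was -0.27, and with it as the reference in place of the 75th percentile the group difference was 1.22 for miR-451, 0.99 for miR-144-3p and 1.39 for miR-144-5p (limma adjusted p = 0.690 for each), where the median over all tested miRNAs moved to 0.31. In the scaled values, no list other than the smooth muscle list had a mean that passed the threshold with a member. Without scaling the red cell list and the smooth muscle list passed with all 3 members, the endothelial list with miR-451 (r = 0.681) and miR-144-5p (0.690), and the neural list with miR-144-5p (0.678). The part that vessels, muscle or leukocytes had in the members' levels was not tested.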

How the data were processed

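Total RNA was labelled with Cy3, per the labels' protocols. The deposited scanner files hold linear spot intensity; per the file headers, background was subtracted and a spatial trend removed (Feature Extraction 10.7.3.1; the submitters' processing notes name 10.5.1.1). Detection, saturation and outlier marks are deposited yes or no values, other information that the file headers name and that served as filters. Log2 values of the deposited series matrix were an alternative, with background step and software not given in the sources used here. Of 47604 spots, 2164 controls were left out. Spots without outlier marks were averaged per probe, probes summed per miRNA, sums scaled to the 75th percentile of the 294 mouse miRNAs detected on 13 arrays, and values under a floor of 17.2 (the 1st percentile of detected values) set to it. No spot was saturated, and the number of arrays limits the precision. Group differences and slopes used limma 3.58.1 in R 4.3.3 (version 1.17.8 of data.table), with lmFit and eBayes, over all tested miRNAs, as two-sided tests with adjustment by Benjamini-Hochberg at 0.05, after a check on simulated data. Correlations and shares used Python 3.11.15 with numpy 2.4.6, pandas 2.3.3 and scipy 1.17.1. Named miRNAs were the members, the 10 most and 3 least correlated with miR-451, and up to 6 tested miRNAs per list by mean level. The members, lists, tests and alternatives were chosen with earlier results of these data known. Alternatives covered scaling, background (normexp on median spot signals), probe summary, filter, floor, variance model, weights, slide, replicate number, covariate and single tumours; those without wild type 6 and deficient 1 were added after seeing the data, as were the values of miR-3107-5p and the covariate fit without the 2 tumours farthest from the median of miR-451. The miR-1-3p of the muscle list is miR-1a-3p on the array.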

Additional observations from a re-analysis of the deposited data

Results flagged for a closer look

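In 16 groups of tumours, 5 values lay far from the rest of their group, by a gap to the nearest tumour that is large against the group's range. Chance marks about 1 in 20 independent groups. These groups are related measures of the same tumours and are not independent, so their count cannot be judged against that rate. Deficient 1 had a miR-451 level of 16.32, above the next deficient tumour at 14.93, and a miR-144-5p level of 8.20, above the next at 6.35 (log2). Its share of signal in miR-451 was 11.4%, above the next at 4.77%. Wild type 6 had a share of 10.2%, above the next wild-type tumour at 2.73%. In wild type 4, miR-3107-5p minus miR-451 was 0.37 above the mean over 13 tumours, and the next wild-type tumour was at 0.02 (log2).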

How the results depend on the processing

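The count of 0 calls between groups (16 at an unadjusted p under 0.05, limma) was 0 under every alternative, with 7 to 63 at an unadjusted p under 0.05. Leaving out each tumour in turn gave group differences of 0.61 to 1.37 for miR-451, 0.36 to 0.99 for miR-144-3p and 0.84 to 1.60 for miR-144-5p. Without scaling the median difference over all tested miRNAs moved to 0.23, and the members differed by 1.14, 0.91 and 1.29 (miR-451, miR-144-3p, miR-144-5p), still above that median. Replicate numbers did not pair the tumours (correlation of same-numbered deviations -0.22 to 0.19 over 6 pairs, 0 of 6 best with their own number); with the replicate block over the tumours that share numbers, the differences were 0.94, 0.89 and 1.16 in the same order of members, and 0 were called. Correlations stayed positive under every alternative. After adjustment over the 3 pairs they missed the threshold for miR-451 and miR-144-3p within slide 1 (0.435) and within the deficient group (0.654), for miR-451 and miR-144-5p within the same slide (0.947) and group (0.967), and for both arms of miR-144 within slide 1 (0.599), the wild-type (0.846) and the deficient group (0.764), each by exact permutation. Leaving out each tumour gave r of 0.818 to 0.964 for miR-451 and miR-144-3p, 0.951 to 0.985 for miR-451 and miR-144-5p, and 0.804 to 0.90 for both arms of miR-144. Of 24 pairs of list and member, 2 passed, and 9 passed without scaling (3 of them for the red cell list). The count was 0 within slide 1, within slide 2 and with group means removed. It was also 0 without the 2 tumours farthest from the median of each list's mean, and without both wild type 6 and deficient 1. The difference in the share of miR-451 ran from 0.195 to 2.76 percentage points over tumours left out, and passed the threshold only without wild type 6. Of the 3 slopes on miR-451, 1 passed without wild type 6 and deficient 1. In the series matrix, whose columns share 1 distribution, wild type 6 and deficient 1 held the same miR-451 value (14.83), since miR-451 was ranked 2 on both arrays; the order between them is thus not resolved there. miR-144-5p lies near background in the wild-type tumours apart from wild type 6, which was at 7.79 (log2). The lowest deficient tumour, deficient 4, was at 5.85, close to wild type 1 at 5.64. miR-486-3p gives no level.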
